A study of Mus musculus with 2 samples.

Results

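The clustered protocadherin genes encode cell surface adhesion proteins of the cadherin superfamily and lie in 3 neighbouring clusters, alpha, beta and gamma, on mouse chromosome 18. Members were the protein-coding genes of the RefSeq gene table (GRCm38.p6, mm10) on that chromosome whose names begin with Pcdha, Pcdhb and a digit, or Pcdhga, Pcdhgb or Pcdhgc. The rule took 57 genes of the 21567 protein-coding genes analysed: 12 variable alpha genes, 22 beta genes, 12 gamma A genes, 6 gamma B genes and the 5 C-type genes Pcdhac1, Pcdhac2, Pcdhgc3, Pcdhgc4 and Pcdhgc5.

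In the alpha and gamma clusters each gene has its own promoter and its own large variable first exon, which is spliced to constant exons shared by the whole cluster. Beta genes consist of a variable exon alone. A neuron is known to choose a small set of variable promoters, largely at random, and the resulting mix of proteins gives the cell a surface identity used in self-avoidance. CTCF and cohesin are known to bind variable promoters and bring them to distant enhancers. The C-type genes are known to be used more regularly than the variable ones.

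H3K4me3, the trimethyl mark on lysine 4 of histone H3 that is known from active and poised promoters, was mapped by ChIP-seq (sequencing of the DNA bound by an antibody) in E14TG2a.4 cells. These are male mouse embryonic stem cells of strain 129/Ola, and the 2 biological replicates come from the same line and form 1 group. The labels of these samples name no treatment. With 1 group there is no contrast to test, and every value below is a description. Signal is the authors' fold of ChIP over control for each peak. The signals in the replicated list, made by the authors from both replicates, are those of their pooled list, with identical edges and signal for all 62128 peaks. They can therefore lie above both replicates' own values.

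The labelled cell type was set against marker genes. Over all 21567 protein-coding genes, 66.6% had a peak of the replicated list within 1 kb of the 5′ end. Such a peak lay at 7 of 8 pluripotency markers (87.5%), with a signal of 69.4 at Pou5f1 and 66.1 at Sox2, and Esrrb had none. It lay at 4 of 9 fibroblast markers (44.4%), led by Fn1 (61.7) and Thy1 (23.4), with no peak at Acta2 or Col3a1. For neuron markers it was 6 of 9 (66.7%), near the share of all genes, led by Stmn2 (43.3) and Map2 (42.1), with none at Camk2a or Dcx. Whether cells of another type contributed to the signal at protocadherin genes was not tested. Peaks of a culture also cannot separate a low level in every cell from a higher level in a few cells. Depth per library is unknown, and replicates 1 and 2 had 86781 and 83750 mm10 peaks.

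Of the 57 members, 39 had a peak of the replicated list within 1 kb of the 5′ end, a share of 68.4% against 66.6% of all 21567 genes. The share of the family as a whole was thus close to the background. Within the family the classes differed widely: 12 of 12 gamma A, 6 of 6 gamma B, 5 of 5 C-type and 11 of 12 variable alpha genes had such a peak, against 5 of 22 beta genes. In replicate 1 alone the count was 39 and in replicate 2 alone 38, where the background was 66.9% and 66.8%. The pooled list, with a background of 68%, called 40, the added member being Pcdhb11 at 2.59. Pcdhb14 was the only member called in replicate 1 and not in replicate 2.

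All 39 signals were below the median of marked protein-coding genes, which was 42.9 over 14364 genes. The median of the 39 members was 14.7, with 12.8 in replicate 1 and 12.4 in replicate 2. The strongest member, Pcdhga2, had 31.5, and 65.3% of marked genes were above it. Across the 38 members called in both replicates, the signals of the replicates had a Pearson correlation of 0.950, over promoters that share the same libraries. Replicate 1 was the higher for 24 of the 38.

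**Figure D1:**
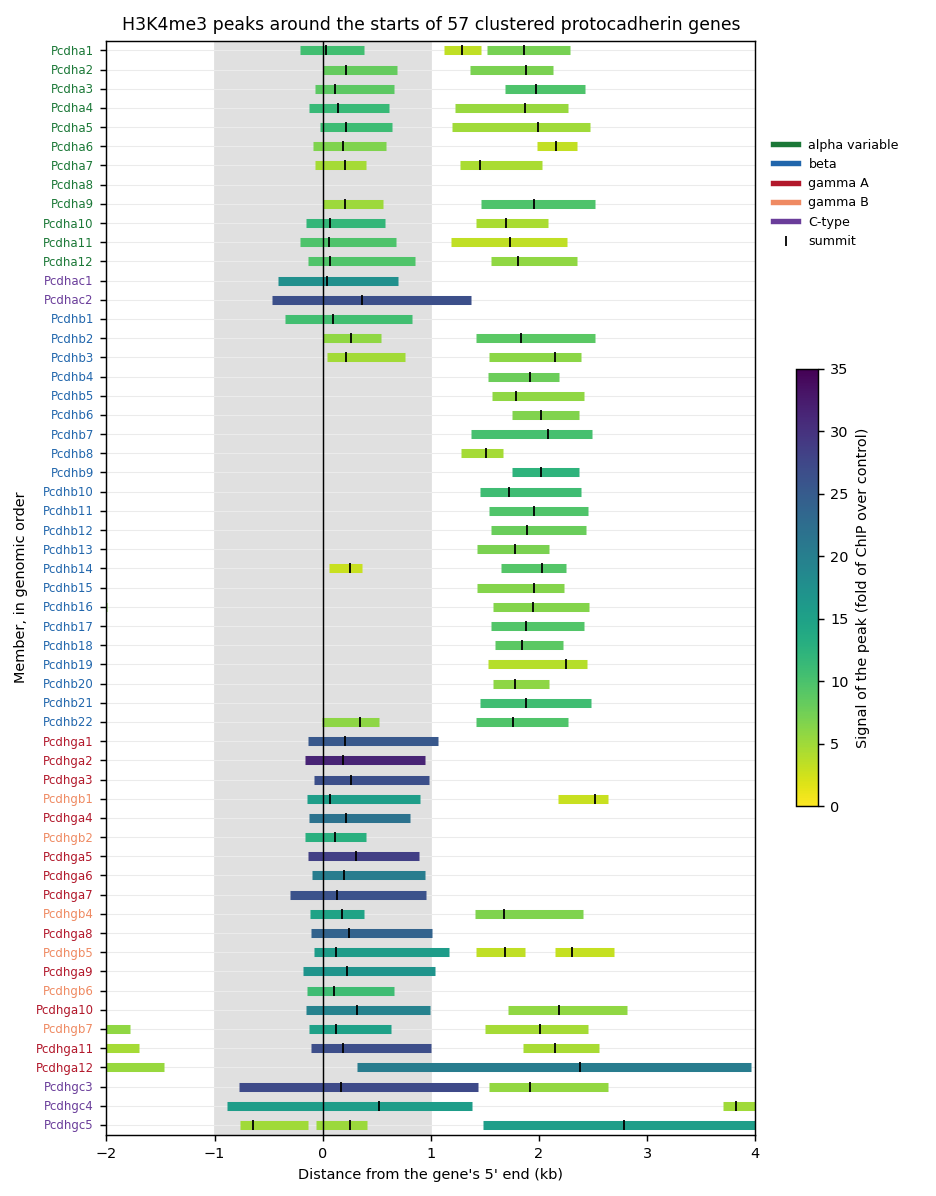
Peaks of the replicated mm10 list (bars, coloured by signal as fold of ChIP over control) around the 5′ end of each of the 57 members (rows, genomic order; names coloured by class); the x axis is the distance from the 5′ end in kb, the grey band the 1 kb on either side and black ticks the summits. Gamma genes carry a peak at the start, variable alpha genes a pair of peaks, and 17 of the 22 beta genes only the downstream peak; bars at the plot's edges can belong to the next gene.

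The peaks of the family lay at a second position as well. In many members a peak sat about 2 kb downstream of the 5′ end, apart from any peak at the start. A downstream peak was defined, after this was seen, as one with its summit 1 to 3 kb downstream of the 5′ end. Starts of neighbouring members were at least 4154 bp apart, so this window reaches no other member's start, and 0 peaks touched the start windows of more than 1 member. A downstream peak was found at 41 of 57 members (71.9%), against 13.9% of all protein-coding genes. The count was 41 in replicate 1 (background 21.2%), 43 in replicate 2 (20.6%) and 44 in the pooled list (20.8%). It was found without any peak at the start at 17 members, all of them beta genes, against 1.75% of all genes. The count of such members was 17 in replicate 1 (background 2.08%), 18 in replicate 2 (1.95%) and 16 in the pooled list (1.91%). Among genes with no peak at the start, 5.23% had a downstream peak.

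**Figure D2:**
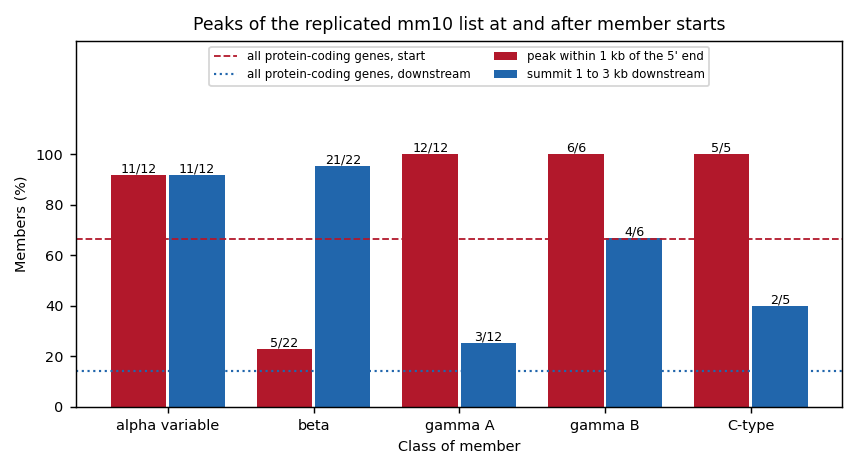
Percent of members (y axis) in each class (x axis) with a peak of the replicated mm10 list within 1 kb of the 5′ end (red bars) and with a summit 1 to 3 kb downstream (blue bars), with counts above the bars; the dashed and dotted lines are the shares of all protein-coding genes, 66.6% and 13.9%. Beta genes stand at 5 of 22 at the start and 21 of 22 downstream.

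Variable alpha genes, the most upstream of the region, carried both peaks at low signal. Of the 12, 11 had a peak at the start and the same 11 had a downstream peak, in each replicate's list as well. Summits at the start lay 34 to 216 bp downstream of the 5′ end, with a median of 139 bp, and the downstream summits at 1454 to 2158 bp, with a median of 1869 bp. Start signals ranged from 4.74 to 11.8 with a median of 9.63, and downstream signals from 3.16 to 9.78 with a median of 5.46.

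Pcdha10 had the strongest start peak of the class, 11.8, with 11.2 in replicate 1 and 9.65 in replicate 2. Pcdha4 followed with 11.4 (11.5 and 9.07 in the replicates) and Pcdha5 with 11.01 (8.91 and 10.6). Pcdha7 was the lowest at 4.74, with 5.63 in replicate 1 and 2.89 in replicate 2. The order among members was not fixed: Pcdha5 was above Pcdha10 in replicate 2 and below it in replicate 1, and in replicate 1 Pcdha9 and Pcdha6 were below Pcdha7. The downstream peak was weaker than that at the start in 9 of the 11, as at Pcdha11, where it had 3.31 against 9.78. It was weaker in 8 of the 11 in each replicate, with the order turned at Pcdha2 in replicate 1 (7.10 against 6.61) and at Pcdha7 in replicate 2 (5.44 against 2.89). At Pcdha9 it was the stronger, 9.78 against 5.18, as it was in replicate 1 (10.03 against 3.92) and in replicate 2 (7.51 against 5.70). Pcdha3 also had the higher signal downstream, 9.78 against 8.77, and the order was the same in replicate 1 (9.30 against 8.08) and in replicate 2 (9.59 against 8.55).

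Pcdha8 was the exception. It had no peak at its start and none downstream in any of the 4 mm10 lists, although its neighbours Pcdha7 and Pcdha9 had both. It starts at 36992467 on chromosome 18 (mm10), 18656 bp after Pcdha7, the widest gap between variable alpha starts.

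Beta genes showed the reverse balance. Only Pcdhb1, Pcdhb2, Pcdhb3, Pcdhb14 and Pcdhb22 had a peak at the start, and these include both ends of the cluster. Pcdhb1, the most upstream and set 29842 bp apart from Pcdhb2, had the highest signal at 10.6, with 9.05 in replicate 1 and 8.67 in replicate 2. Pcdhb22 had 5.90 (5.63 and 5.96), Pcdhb2 5.75 (5.63 and 4.00) and Pcdhb3 4.89 (3.42 and 3.37). Pcdhb14 was the weakest at 2.87, with 3.46 in replicate 1 and no peak in replicate 2. Its peak did not pass a q-value of 1e-05. Pcdhb4, Pcdhb5 and Pcdhb6 are the first of the 17 without a peak at the start.

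A downstream peak was present at 21 of the 22 beta genes, in each replicate's list as well, and Pcdhb1 was the gene without one. The summits lay 1513 to 2253 bp from the 5′ end, with a median of 1888 bp, close to the position in alpha genes. Signals ran from 3.88 at Pcdhb19 to 12.4 at Pcdhb9, with a median of 8.05. Pcdhb9 had 12.5 in replicate 1 and 10.1 in replicate 2. Pcdhb10 had 10.9 (12.5 and 7.77) and Pcdhb21 10.8 (10.5 and 8.81). Pcdhb19 had 3.66 and 3.89 in the replicates. It was the lowest in replicate 1, whereas in replicate 2 Pcdhb8 was lower at 3.63. At the 4 beta genes with both peaks the downstream one was the stronger, by 1.24 times at Pcdhb3 to 3.25 times at Pcdhb14.

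A window of 2 kb on either side of the 5′ end, in place of 1 kb, reached the downstream peaks and called all 22 beta genes marked instead of 5. The beta count at the start thus depends on where the window ends. With a window of 500 bp the count stayed at 5.

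**Figure D3:**
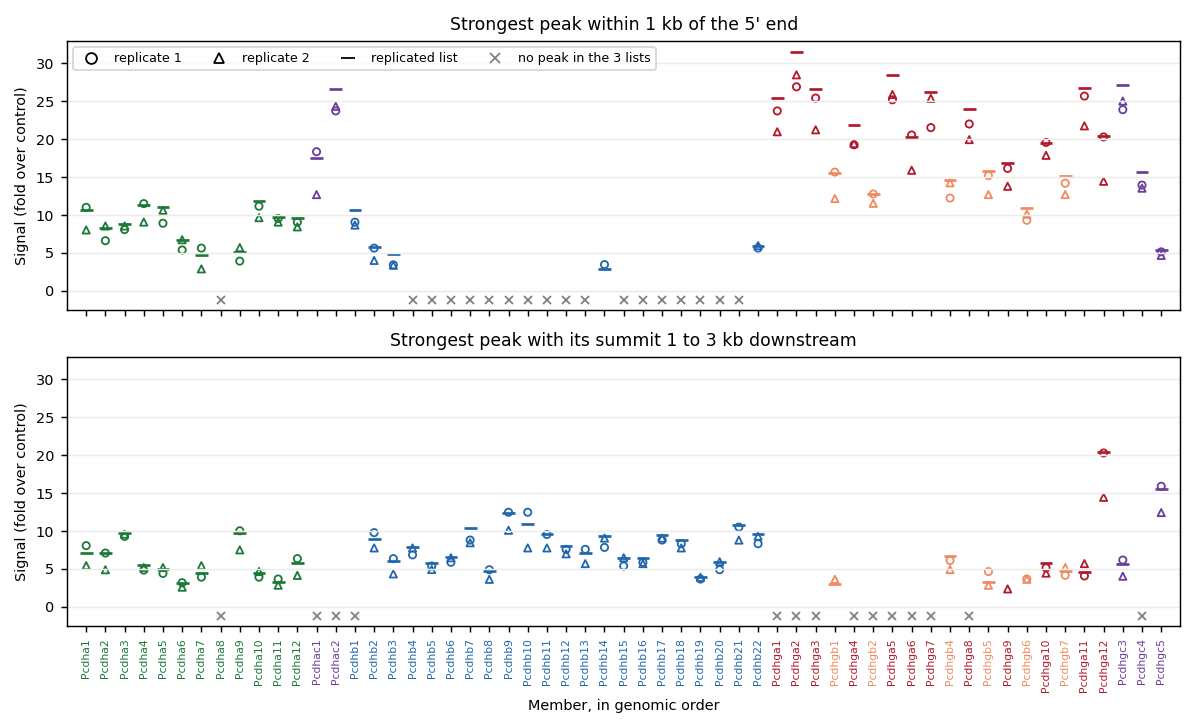
Signal (y axis, fold of ChIP over control) of the strongest peak within 1 kb of the 5′ end (upper panel) and of the strongest peak with its summit 1 to 3 kb downstream (lower panel) for the 57 members in genomic order (x axis, coloured by class as in the peak rows by gene); circles are replicate 1, triangles replicate 2, dashes the replicated list and grey crosses members with no peak in these 3 lists. Gamma A genes reach 16.8 to 31.5 at the start and variable alpha genes 4.74 to 11.8.

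Gamma genes had the highest signals at the start. The 12 gamma A genes ranged from 16.8 to 31.5 with a median of 24.7, and the 6 gamma B genes from 10.9 to 15.8 with a median of 14.9, so the classes did not overlap in the replicated list. They did not overlap in replicate 1 either (16.2 to 26.9 and 9.30 to 15.7). In replicate 2 the ranges met, 13.8 to 28.5 for gamma A and 10.1 to 14.2 for gamma B. A and B genes are interspersed along the cluster, and no gamma B genes are neighbours. Each of the 6 gamma B genes was below the gamma A gene on either side of it, in the replicated list and in both replicates.

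Pcdhga2 led gamma A with 31.5 (26.9 in replicate 1 and 28.5 in replicate 2). Pcdhga5 had 28.5 (25.2 and 25.9) and Pcdhga11 26.7 (25.7 and 21.8), and Pcdhga9 was the lowest at 16.8 (16.2 and 13.8). Pcdhga2 was the highest in each replicate, whereas Pcdhga11 was above Pcdhga5 in replicate 1 and below it in replicate 2. In gamma B, Pcdhgb5 had 15.8 (15.2 and 12.7), Pcdhgb1 15.5 (15.7 and 12.2), Pcdhgb7 15.1 (14.2 and 12.7) and Pcdhgb6 10.9 (9.30 and 10.1).

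A downstream peak was found at 3 of 12 gamma A and 4 of 6 gamma B genes, against 13.9% of all genes. The gamma A share was 25% in replicate 1 (background 21.2%), 33.3% in replicate 2 (20.6%) and 33.3% in the pooled list (20.8%). With 12 genes, no excess over the background is read from these gamma A shares. In the pooled list 4 of 12 gamma A and 6 of 6 gamma B genes had one. At Pcdhgb4, Pcdhgb5, Pcdhgb7, Pcdhga10 and Pcdhga11 it had 3.31 to 6.76, and at Pcdhgb1 2.95, all below the start peak of the same gene. Pcdhgb1 had no such peak in replicate 1 and 3.63 in replicate 2. Pcdhgb6 had one in each replicate (3.67 and 3.63) and none in the replicated list, so the weak downstream calls in gamma depend on the list. Pcdhga12 differed from the other gamma A genes. Its peak was 3647 bp wide, began after the 5′ end and had its summit at 2380 bp, so the same peak counts at the start and downstream.

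C-type genes did not behave as 1 class. Pcdhac2 had 26.6 at the start (23.7 in replicate 1 and 24.4 in replicate 2) and Pcdhac1 17.5 (18.4 and 12.7), and both were above every variable alpha gene in the replicated list and in each replicate. Neither had a downstream peak. Pcdhgc3 had 27.1 (23.9 and 25.03), within the gamma A range, and Pcdhgc4 had 15.7 (13.9 and 13.5). Pcdhgc5 was far lower at 5.32, with 5.14 and 4.66 in the replicates, below every other gamma gene. A stronger peak lay 2785 bp into Pcdhgc5, with a signal of 15.5 (15.9 and 12.4). It was part of a domain of 7210 bp from 37821030 to 37828239 on chromosome 18 (mm10), whose strongest peak had 19.2.

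**Figure D4:**
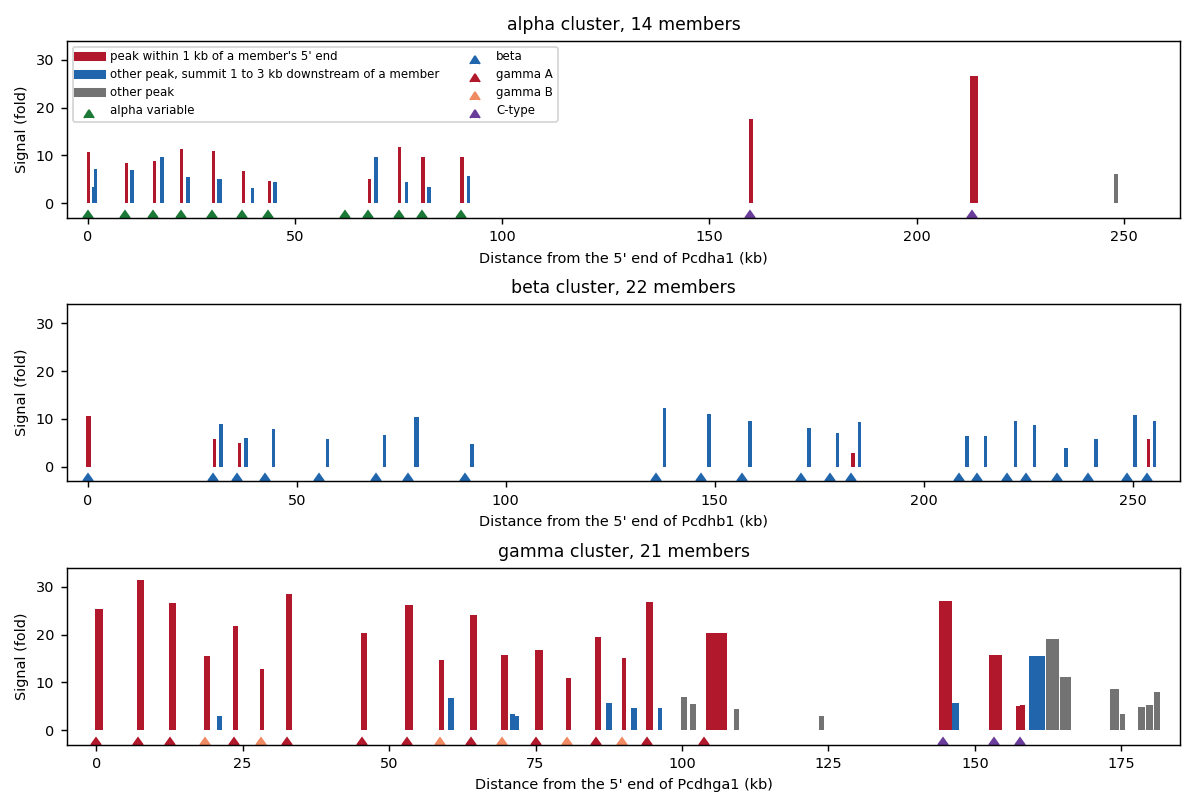
Peaks of the replicated mm10 list across the alpha, beta and gamma clusters (panels); the x axis is the distance in kb from the 5′ end of the first member of each cluster, bar height is signal (fold of ChIP over control), bars under 0.8 kb are drawn 0.8 kb wide and triangles mark member starts by class. Red bars touch a member's start window, blue bars have a summit 1 to 3 kb downstream of a member and grey bars do neither; the highest bar is 12.4 in beta and 31.5 in gamma.

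Across the whole clusters, from the first member's start to the last member's end, the replicated list held 26 peaks in alpha (258613 bp), 26 in beta (256422 bp) and 41 in gamma (180099 bp). Peaks covered 8.16%, 7.67% and 26.3% of these spans, against 2.52% of chromosome 18 between its first and last gene. Genes are denser in the clusters, with 14, 22 and 21 members in these spans. Chromosome 18 has 493 analysed genes in 87420776 bp, and the covered shares were not adjusted for this. Of the 93 peaks, 40 touched a member's start window and 53 did not. In beta, all 21 peaks away from the starts had their summit 1 to 3 kb downstream of a member. In alpha, 12 of 13 did, and the remaining peak (signal 6.17) lay 34671 bp after the Pcdhac2 start. Such remaining alpha peaks numbered 2 in each replicate's list and 5 in the pooled list. In gamma, 9 of 19 did. Of the other 10, 6 lay downstream of Pcdhgc5, 5725 to 22101 bp after its start, towards the end of the cluster.

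Genes that are no member set the scale around the clusters. Taf7, which encodes a subunit of the general transcription factor TFIID and starts between beta and gamma, had 53.6, and Slc25a2, a mitochondrial carrier gene beside it, 5.63. Zmat2 upstream of alpha had 76.2 and Diaph1 downstream of gamma 73.6. Gm37013, Gm38666 and Gm38667, gene models that run from the alpha cluster through the end of gamma, had no strand in the tables used and were not analysed here.

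Domains, formed by joining peaks less than 1 kb apart, had a median width of 1835 bp at the marked members, against 2424.5 bp for all marked genes. This value depends on the list, with 1376 bp in replicate 1 and 1129.5 bp in replicate 2. At 9 of the 11 marked alpha genes the start and downstream peaks were joined, in domains of 2103 to 2516 bp. They stayed apart at Pcdha3 and Pcdha6, with widths of 729 and 674 bp at the start.

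The mm9 lists gave a check on another build and another annotation. GENCODE vM1 gathers the alpha and gamma genes in few models, so their starts are counted there without names: 10 in alpha and 9 in gamma, beside 21 named beta genes. These are fewer than the 14 alpha, 21 gamma and 22 beta members, and C-type starts are among them. No alpha start matches Pcdha8 by position, so its lack of peaks was not checked here. In the pooled mm9 list a region lay within 1 kb of the start at 10 of 10 alpha, 9 of 9 gamma and 6 of 21 beta starts, against 69.6% of all vM1 protein-coding genes. That background counts a gene with a region at any of its vM1 starts. Alpha and gamma starts were each counted on their own, so the background is the looser measure for them. The beta count was 6 in replicate 1 and 3 in replicate 2. A region with its midpoint 1 to 3 kb downstream was found at 20 of 21 beta starts, 15 of them without one at the start. It was found at 8 of 10 alpha and 3 of 9 gamma starts. The share of all genes with such a downstream region was not computed in mm9, so these counts have no background. For 3 beta genes the start call differed between the replicated mm10 and the pooled mm9 list: Pcdhb6 and Pcdhb11 had a region only in mm9, and Pcdhb14 a peak only in mm10. Pcdhb6 has 2 vM1 starts, and its mm9 start value, 6.32, came from the downstream region. The start value of Pcdhb2, 10.3, also came from a region counted downstream. Start and downstream values were likewise identical at the alpha start at 37179884 (7.81) and the gamma starts at 37901748 (7.81) and 37925234 (10.8). In the coding sequence of the beta genes, the midpoint of the downstream region lay at 65.5 to 79.2% of the length, with a median of 76.7%. None of the 3 constant alpha exons lay in a region, and 2 of the 3 constant gamma exons did, with signals of 7.74 and 3.73. The region of 7.74 was 10000 bp wide, from 37978401 to 37988400. It also covered the gamma start at 37979200, whose start value is the same. A mark at that exon therefore cannot be told apart from the mark at this start.

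Sequence around the mm9 starts had features that the choice of members did not use. In 1 kb centred on the start, the median GC content was 41.6% in beta, 47.2% in alpha and 49.2% in gamma, and the median ratio of observed to expected CpG was 0.412, 0.706 and 0.658. From 1.4 to 2.4 kb downstream, GC content was 58.5% in beta, 58.3% in alpha and 54.1% in gamma. The CpG ratio there was 0.4528, 0.6325 and 0.4131, so it was slightly higher than at the start in beta and lower in alpha and gamma. This window holds the median summit position of the downstream peaks of alpha and beta genes. In means over steps of 250 bp, GC content in beta was highest, at 61.6%, 1875 bp downstream. The CpG count, unlike the ratio, rose strongly in beta, from 1.94 per 100 bp at 125 bp to 5.45 at 1875 bp downstream. In alpha it was similar at both positions, with 6.44 at 375 bp and 6.6 at 1375 bp. In gamma it was lower downstream, with 5.91 at 375 bp and 4.31 at 1875 bp. By promoter class, alpha had 1 high-CpG and 9 intermediate starts, beta 15 intermediate and 6 low-CpG, and gamma 1 high-CpG, 4 intermediate and 4 low-CpG. By position, the high-CpG starts, at 37303623 in alpha and 37966064 in gamma, match the C-type genes Pcdhac2 and Pcdhgc3. Over all vM1 protein-coding genes 35.5% were high-CpG. These genes were classed at their outermost 5′ start. A region within 1 kb of any start of the gene was found for 99.6% of high-CpG, 87.6% of intermediate and 29.2% of low-CpG genes.

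Variable exons are close copies of one another, so the share of 32-base words that occur elsewhere in the mm9 genome was measured as well. In the 2 kb around the start the median share was 10.2% in alpha (0 to 13.35%), 0.550% in beta (0 to 21.05%) and 2.35% in gamma (0 to 11.2%). In means over steps of 250 bp it was highest 1625 bp downstream in alpha, at 42.4%, and 1875 bp downstream in beta, at 32.8%, and in alpha it also reached 33.4% at 375 bp. Among beta genes unmarked at the start in mm10, 5 of 16 had no repeated word in the start window, against 5 of 5 marked ones. The median share there was 8.975% (0 to 21.05%) in the unmarked genes and 0% in the marked ones. No label or header tells how reads with several matches were aligned, and the part of repeated sequence in the peaks was not tested.

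**Figure D5:**
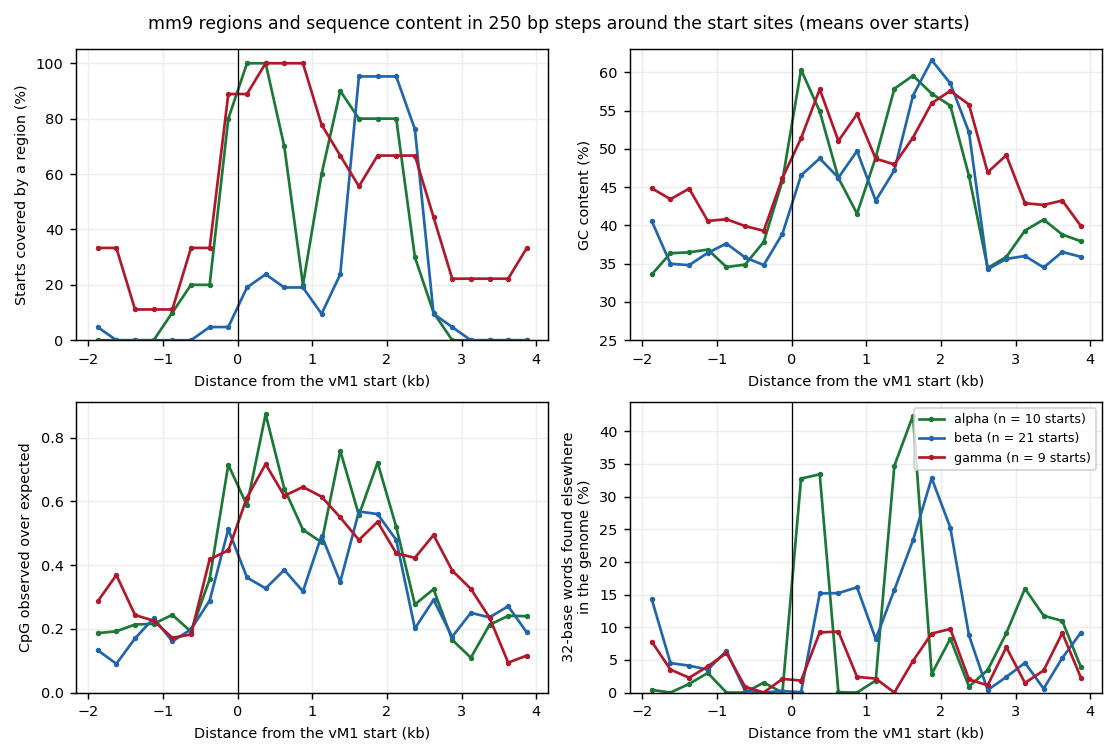
Means over vM1 starts of the alpha, beta and gamma clusters (mm9) in steps of 250 bp: percent of starts covered by a region of the pooled mm9 list, GC content, ratio of observed to expected CpG, and percent of 32-base words found elsewhere in the genome (y axes) against distance from the start in kb (x axes). Of beta starts, 95.2% are covered at 1875 bp downstream, where GC content, 61.6%, and repeated words, 32.8%, are also highest for beta.

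Related genes were measured in the same way, beside the 66.6% of all genes with a peak at the start. Of 12 non-clustered protocadherin genes, which lie apart and have a promoter each, 11 had a peak at the start, with a median of 17.5 and a range from 4.89 to 25.9. Pcdh17 had 25.9 (23.0 and 23.1 in the replicates) and Pcdh19 24.9 (20.6 and 23.8), and Pcdh12, an endothelial member, had no peak. Their range lay within that of the clustered genes. Of 23 other cadherins, 14 were marked (60.9%), near the share of all genes. Cdh1, which encodes E-cadherin, had 62.3 and Cdh24 39.1, and Cdh12 and Cdh13 were unmarked. A downstream peak was found at 6 of the 12 non-clustered protocadherins and 2 of the 23 other cadherins, against 13.9% of all genes. It was the stronger at Pcdh11x (11.4 against 4.89) and Pcdh20 (9.92 against 7.33), and the weaker at Pcdh10 and Pcdh17. At Pcdh8 and Pcdh9 the start and downstream values were identical. The downstream peak was thus not particular to the clustered genes. No gene of either list had a downstream peak without a start peak, and nothing is read from this beside a background of 1.75%.

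Genes for known regulators of the clusters were marked in 21 of 22 (95.5%), against 66.6% of all genes, with a median of 51.9. Mau2, a partner in cohesin loading, had 78.9 and Trim28, a corepressor, 75.6. Ctcf had 60.7, the cohesin subunit gene Rad21 56.8, and Smchd1, which is known to repress the clusters, 57.7. Dnmt1 was the gene without a peak at its 5′ end. Genes for proteins that act with protocadherins at the membrane or cleave them were marked in 13 of 15 (86.7%). Abi1 (60.5) and Wasf1 (60.1) of the WAVE complex led them, and Abi2 and Psen2 were unmarked. The medians of these lists, 51.9 and 43.9, were near or above the 42.9 of all marked genes.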

How the data were processed

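H3K4me3 peak lists of 2 biological replicates of 1 group were used. The authors deposited 4 lists on mm10 (narrowPeak) and 3 on mm9 (broadPeak), per the deposited file descriptions. Names of the caller and the aligner were not given in the sources used here. Each peak in the deposited mm10 lists carries a display score, a ratio of ChIP over control (signal), a q-value as its −log10, and a summit. The deposited mm9 lists give a ratio whose denominator is not stated and a q-value, on a grid of 200 bp. Scores were not used.

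Each gene was placed at its 5′ end. Strand came from GENCODE vM1 gene names (18392 genes), the RefSeq promoter table (2749), vM1 synonyms (394) or, for 32 members, the vM1 cluster models, and 320 genes without a strand were left out. A gene was marked when a peak overlapped 1 kb on either side. Promoter classes used 500 bp windows in mm9. The downstream window was chosen after the data were seen. The step that assigns deposited peaks to windows was tested on simulated data. No test between groups was possible. Members and lists were chosen with earlier results of these data known. Named genes were all C-type genes and, per class, the 3 strongest, the weakest and the first 3 without a peak, with genes whose calls differed between lists, and per other list the 2 strongest and first 2 unmarked. Ctcf, Rad21, Smchd1, Pcdha2, Pcdha3, Pcdha6, Pcdha9, Pcdha11, Pcdhga12 and the downstream examples were added after their values were seen. Analyses used Python 3.11.15, pandas 2.3.3 and numba 0.67.0.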

Additional observations from a re-analysis of the deposited data

How the results depend on the processing

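The counts of members marked at the start (all and by class), their median signal and width, and the peaks between starts were recomputed with each replicate's list, the pooled list, a q-value under 1e-05, other windows and, for widths, other joining. A window of 2 kb moved the beta count from 5 to 22 and the count of all marked members from 39 to 56 of 57. It also moved peaks between starts from 53 to 12, the median signal from 14.7 to 10.9 and the median width to 1108 bp. The wider window reaches the downstream peaks. Leaving out a replicate gave median signals of 12.4 to 12.8 and widths of 1129.5 to 1376 bp. The pooled list gave a median signal of 13.7, since it adds Pcdhb11 at 2.59 and holds the same signals for the other 39. Its median width was 2180.5 bp, and the cause of that difference was not tested. Widths were 930 bp without joining and 2470 bp with joining under 3 kb. The other recomputed values of these results were within 1.5 times (counts) or the spread between replicates (medians). Class medians, covered shares, sequence values and the other gene lists were not recomputed with other thresholds or windows. The beta genes with a downstream summit only, 17, numbered 15 to 18 over the alternatives, which were chosen after seeing the data. Since vM1 does not name alpha and gamma starts, the mm9 alternative was run by start for those clusters and gave no count of members, medians or widths. No paired analysis was possible because there is 1 group. Depth is unknown, and an unmarked start may hold signal below the authors' threshold.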

Other observations

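Peaks also lay between the clusters, where no member starts. The strongest, apart from that at Taf7, had a signal of 33.2, spanned 37655184 to 37656536 on chromosome 18 (mm10) and had its summit 6023 bp from the 5′ end of Pcdhga1. That signal was above every member's own. Another, from 37618202 to 37619753, had 13.9 and lay 19551 bp from the 5′ end of Slc25a2. Between alpha and beta a single peak, from 37217537 to 37218311, had 11.9 and lay 47087 bp from the 5′ end of Pcdhb1. These values were chosen after they were seen.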
